A study of Mus musculus with 3 samples.

Results

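The enzymes that build haem were described in the RNA of purified mouse platelets, with the question of which of them varied between libraries as Alas2, the erythroid first enzyme, did, and which stayed steady. The set was named as 8 genes, of which 7 were among the 9822 genes of the count tables: Alas2, Alas1, Alad, Uros, Urod, Cpox and Fech. Ppox, which oxidises protoporphyrinogen in the step before the last, was not in the count tables analysed here. The genes were chosen by their place in the pathway with the CPM of Alas2 in these same 3 libraries already known, so their levels and differences are a description and carry no test.

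The platelets were purified from blood of BALB/c males, 20 weeks of age and wild type for Nxf1, and gave 3 libraries of 1 group, replicates 1, 2 and 3. Each replicate was a batch of its own by the labels, which leave unsaid whether the replicates were different mice, so library and batch cannot be told apart and the spread may be technical. Replicate 1 had 26974129 counts, replicate 2 25189231 and replicate 3 26111636. Levels are given as CPM, the count of a gene divided by the total of its library and multiplied by 1000000.

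Haem, the iron-porphyrin that carries oxygen in haemoglobin and serves cytochromes, catalase and cyclooxygenase, is made by a chain of enzymes that begins and ends in the mitochondrion and passes through the cytosol in between. The first step, joining glycine to succinyl coenzyme A, is carried out by a pair of isoenzymes: Alas1 in all tissues, and Alas2 in the red cell lineage. Alas1 is held down by haem itself, whereas Alas2 is switched on by GATA1 and its translation is tied to iron supply. The later enzymes have 1 gene each, and developing red cells make far more of them than other cells do. Platelets have no nucleus and hold RNA passed on by the megakaryocyte, a cell that shares a progenitor and several transcription factors with the red cell lineage.

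The upstream sequence of 3 members is shown for a reader to set beside their levels: Alas2, the most variable enzyme, Urod, the most abundant of the cytosolic enzymes, and Cpox, the least abundant member. Sequences are from RefSeq (GRCm38.p6), 5′ to 3′ on the strand of the gene, and capitals mark the letters of a GATA motif (AGATAA or AGATAG, and likewise TGATAA or TGATAG) or of CACCC, the letters bound by erythroid Krüppel-like factor, on either strand. The Alas2 stretch is chrX:150547167-150547374 on the plus strand, the 208 bases that lie before the first annotated exon. Urod is chr4:116994414-116994663 on the minus strand and Cpox chr16:58669958-58670207 on the plus strand, 250 bases each. The Urod start used for this stretch, base 116994413, lies inside the gene span given below, which ends at 116994436. The Urod stretch therefore overlaps the end of that span.
Alas2: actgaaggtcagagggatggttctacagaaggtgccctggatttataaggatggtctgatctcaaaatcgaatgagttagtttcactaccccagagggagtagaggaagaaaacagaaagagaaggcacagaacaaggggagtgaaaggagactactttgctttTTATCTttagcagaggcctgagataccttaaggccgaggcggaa
Urod: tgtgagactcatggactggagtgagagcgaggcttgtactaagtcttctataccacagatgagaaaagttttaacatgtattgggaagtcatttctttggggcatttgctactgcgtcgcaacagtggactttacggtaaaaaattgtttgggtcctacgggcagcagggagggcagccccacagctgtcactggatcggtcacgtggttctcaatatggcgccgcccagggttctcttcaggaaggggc
Cpox: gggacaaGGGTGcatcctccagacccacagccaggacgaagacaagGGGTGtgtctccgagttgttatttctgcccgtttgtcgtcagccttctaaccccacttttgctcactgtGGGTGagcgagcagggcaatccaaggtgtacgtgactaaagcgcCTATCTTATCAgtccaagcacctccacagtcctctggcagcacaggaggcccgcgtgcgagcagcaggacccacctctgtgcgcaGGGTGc

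Over the 250 bases before the start, Alas2 held 1 GATA motif, at 86 to 81 bases before it, and 3 CACCC matches in tandem between 40 and 26 bases before it. Those CACCC matches lie within an exon of the GENCODE annotation and are not in the stretch shown. Cpox held 2 overlapping GATA matches, from 91 to 81 bases before its start, and 4 CACCC matches. Urod held neither. Of all 32851 windows in the RefSeq promoter table, 26.5% held a GATA motif and 52.0% a CACCC, so both sets of letters are common. Windows were given for 6 of the 7 members; Fech had none, and the sequence for Alad, Alas1 and Uros came in 2 windows each. Of these, only the second Uros window held GATA letters, with 2 matches. The start of that window, base 133702500, lies inside the gene span of Uros given below.

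Alas2 RNA also carries a stem-loop by which iron regulatory proteins control its translation. The loop letters CAGTG, after a stem side of 5 bases that can pair with the 5 bases behind the loop, were found in Alas2 at chrX:150547464-150547480 (plus strand, first exon), shown with the loop in capitals.
Alas2 stem-loop: cgtcctCAGTGcagggc
No transcript of the other members held this pattern, against 0.808% of all 55450 GENCODE genes. Counts of RNA do not report on translation.

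Alas2 and Fech, the enzymes of the first and the last step, were the members that differed most between libraries. Alas2 (Entrez gene 11656, chromosome X, 150547417 to 150570622) was at 566 CPM in replicate 1, 27.9 CPM in replicate 2 and 59.6 CPM in replicate 3, from 15278, 702 and 1556 counts. Replicate 1 stood far above both others, and the libraries followed the order 1, 3, 2. The level in replicate 1 was 20.3 times that in replicate 2 (95% interval 18.8 to 21.95) and 9.50 times that in replicate 3 (9.02 to 10.02). These intervals are exact binomial ones and cover counting error only. Exons of Alas2 overlap those of Apex2 and Mir3620 on the opposite strand, and exons of Alas1 and Cpox likewise overlap an opposite gene each; reads of such pairs cannot be told apart, since the strand setting of the counting was not stated. Without replicate 1 a difference was still present, replicate 3 being 2.14 times replicate 2 (1.95 to 2.34).

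Fech (Entrez gene 14151), which inserts iron into protoporphyrin, was at 60.1, 9.41 and 14.4 CPM in the 3 libraries, on 1622, 237 and 377 counts. It kept the order 1, 3, 2 with smaller steps. Replicate 1 was 6.39 times replicate 2 (95% interval 5.57 to 7.36) and 4.16 times replicate 3 (3.72 to 4.67), and replicate 3 was 1.53 times replicate 2 (1.30 to 1.81). As means, Alas2 was at 218 ± 302 CPM and Fech at 27.99 ± 27.9 CPM (SD, n = 3), so that the SD was above the mean for Alas2 and about equal to it for Fech.

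**Figure D1:**
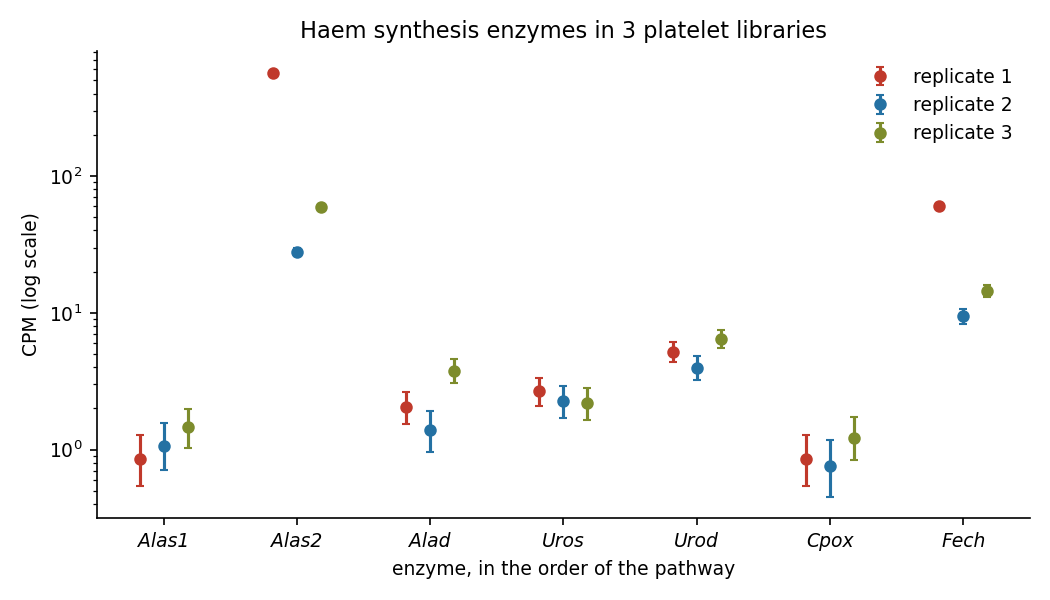
CPM of the 7 enzymes in the 3 libraries, on a log scale, in the order of the pathway; points are single libraries and bars exact 95% Poisson intervals for counting error. Alas2 runs from 27.9 to 566 CPM and Fech from 9.41 to 60.1 CPM, whereas the libraries of each other enzyme lie within a ratio of 2.70.

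Alas1, the isoenzyme found in all tissues (Entrez gene 11655, chromosome 9, 106233455 to 106247954), was scarce and did not share the pattern. Its level was 0.853 CPM in replicate 1, 1.07 CPM in replicate 2 and 1.46 CPM in replicate 3, on 23, 27 and 38 counts. Replicate 1, the highest library for Alas2, was the lowest for Alas1, but no pair of libraries differed beyond counting error: replicate 1 against 3 was 0.586 times with an interval of 0.333 to 1.01. Between genes, levels were compared per 1000 bases of the deposited gene length. On this scale Alas2 exceeded Alas1 907 times in replicate 1, 35.5 times in replicate 2 and 55.9 times in replicate 3. The erythroid isoenzyme was thus the higher one in every library, including the 2 with little of it.

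The cytosolic enzymes were at a few CPM. Urod (Entrez gene 22275, chromosome 4, 116989965 to 116994436), which trims the side chains of uroporphyrinogen, was the highest of them both in CPM and per length, with 140, 100 and 168 counts or 5.19, 3.97 and 6.43 CPM in the 3 libraries. Replicate 3 was the highest, at 1.62 times replicate 2 (95% interval 1.26 to 2.10), and replicate 1 was 1.31 times replicate 2 (1.00 to 1.71). Uros (Entrez gene 22276, chromosome 7, 133686142 to 133710467), which closes the ring, was at 2.67, 2.26 and 2.18 CPM, with 72, 57 and 57 counts. No pair of its libraries differed beyond counting error, and its coefficient of variation of 11% was below the 12.7% that counting alone gives at this depth. Its ratio of the highest to the lowest library, 1.22, was the smallest of the members on plain totals, but it was 1.42 with TMM scaling and 1.46 with DESeq2 size factors, where Urod had the smallest (1.40 and 1.35).

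Alad (Entrez gene 17025, chromosome 4, 62505984 to 62520063), which joins 2 aminolaevulinate molecules into porphobilinogen, varied in another way. It had 55, 35 and 98 counts in replicates 1, 2 and 3, which is 2.04, 1.39 and 3.75 CPM. Replicate 3 was the highest, 2.70 times replicate 2 (95% interval 1.82 to 4.10), and replicate 1 was only 0.543 times replicate 3 (0.383 to 0.763). Alad therefore had a ratio between libraries above 2, as Alas2 and Fech had, with its peak in a different library. Cpox (Entrez gene 12892, chromosome 16, 58670208 to 58680391), the first of the late mitochondrial steps, was the lowest member at 0.853, 0.754 and 1.23 CPM, with 23, 19 and 32 counts. At this depth no difference between its libraries was detectable; the interval of replicate 3 against 2 was 0.893 to 3.03 times.

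Most genes were read a little higher in replicate 3 when libraries were scaled to their totals: the median of all genes was 0.25 higher on the log2 scale in replicate 3 than in replicate 2, and 0.23 lower in replicate 1 than in replicate 3. Relative to that median gene, the log2 difference of replicate 3 over 2 was 0.84 for Alas2, 0.36 for Fech, 1.18 for Alad and 0.44 for Urod, and for all 4 the counting interval still lay above the median gene. For Alas1, Uros and Cpox it did not. For replicate 1 over 2 the log2 difference relative to the median gene was 4.35 for Alas2 and 2.68 for Fech.

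Set against all genes, the ratio of the highest to the lowest library was 2 or more for 3 of the 7 members (Alas2 at 20.3, Fech at 6.39 and Alad at 2.70), whereas 9.33% of the 8289 genes that averaged at least 1 CPM had such a ratio. Of the members, 6 passed that minimum; Cpox did not. At a ratio of 1.5 or more the count was 6 of the 7, all but Uros, against 33.6% of genes. With TMM scaling or DESeq2 size factors Alas1, Urod and Cpox fell below 1.5 and the count was 3 of the 7, against 23.5% and 21.8% of genes. Because Alas2 was known to vary when the set was drawn up, nothing is read from these counts. Just below the ratio of 2 lay Alas1 at 1.71, Cpox at 1.62 and Urod at 1.62, then Uros at 1.22. Replicate 1 was at least 2-fold above each of the others for 2 of the 7, Alas2 and Fech, a rule met by 27 genes in all (0.326%). Replicate 1 was the highest library for 3 members, Alas2, Fech and Uros, and for 15.2% of genes. The order 1, 3, 2 was held by Alas2 and Fech, and by 10.1% of genes. Replicate 3 was the highest library for Alas1, Alad, Urod and Cpox, 4 of the 7, as it was for 69.1% of genes, a share of 42.1% with TMM scaling and 37.6% with DESeq2 size factors. Replicate 2 was the lowest for 5 of the 7 and for 43.4% of genes, and 3 of those 5, Alad, Urod and Cpox, had the order 3, 1, 2, the order of 33.3% of genes. Among those 27 genes the ratio of Alas2 was the largest, just above that of Trim10 (19.7), which rests on 10 counts in replicate 2. Of the 8289 genes averaging at least 1 CPM, 1 had a larger ratio, Alb, which had no count in replicate 1.

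A ratio between libraries depends on the level, so each member was also placed among the genes within 2-fold of its own mean. Alas2 lay at percentile 99.8 of 466 such genes, whose median ratio was 1.11, and Fech at percentile 99.7 of 1408 genes, with a median of 1.18. Alad lay at percentile 97.6 of its 3406 neighbours in level. Urod (percentile 72.4), Alas1 (60.3), Cpox (51.9) and Uros (16.8) lay within the bulk of genes as scarce as themselves, for which the median ratio was between 1.39 and 1.61.

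**Figure D2:**
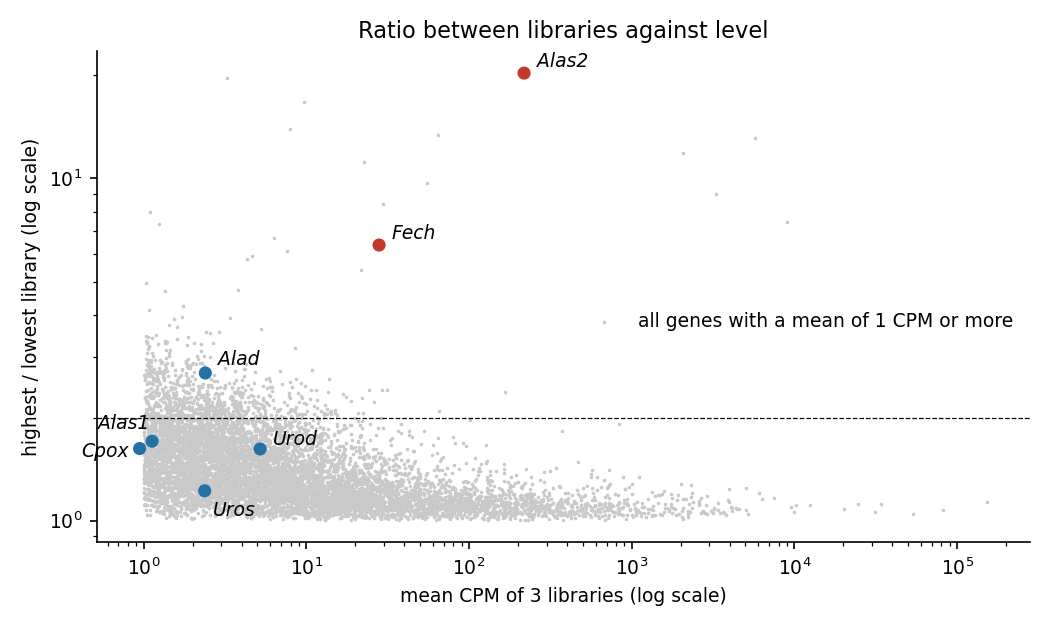
Ratio of the highest to the lowest library against mean CPM, both on log scales; grey points are genes averaging at least 1 CPM (Alb, with no count in 1 library, is not drawn), large points the enzymes, and the dashed line a ratio of 2. Alas2 (20.3) and Fech (6.39) stand above genes of their level, Alad (2.70) lies at the upper edge, and the others lie within the cloud.

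Per 1000 bases of gene length the mean levels ran from Alas2 (110 ± 153; SD, n = 3) through Fech (9.65 ± 9.63), Urod (4.34 ± 1.03), Alad (1.77 ± 0.905), Uros (1.31 ± 0.144) and Alas1 (0.417 ± 0.113) to Cpox (0.296 ± 0.0780), all in CPM per 1000 bases. Alas2 was first and Cpox last in each library. In replicate 1 Fech was at 20.7 and Urod at 4.33. Fech and Urod were at 3.24 and 3.31 in replicate 2 and at 4.98 and 5.37 in replicate 3. In replicates 2 and 3 their counting intervals overlapped, so the order of Fech and Urod there is not settled. Alad and Uros overlapped in their range over the libraries, and Alas1 and Cpox did so too. With the 7 members added together, reads came to 638 CPM in replicate 1, 46.7 CPM in replicate 2 and 89.1 CPM in replicate 3. Alas2 alone made up 88.8% of these reads in replicate 1, with an exact Clopper-Pearson 95% interval of 88.3% to 89.2%. Its share was 59.6% of replicate 2 (56.8% to 62.5%) and 66.9% of replicate 3 (64.9% to 68.8%). Without Alas2 and Fech, the remaining 5 enzymes summed to 11.6, 9.45 and 15.1 CPM, with replicate 3 the highest.

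Likeness to Alas2 was measured as the root mean square difference of log2 CPM over the 3 libraries after each gene was centred on its own mean; 0 would be the same profile. With only 3 libraries this is a description. Fech was at 0.70 and ranked 13th nearest of all genes averaging at least 1 CPM, whose median was 1.88. The other members were much farther: Uros at 1.73, Urod at 1.78, Alad and Cpox both at 1.87, and Alas1 at 2.05, which is farther than the median gene.

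The 10 genes nearest to Alas2 were Cdr2 (0.18), Slc4a1 (0.27), Bpgm (0.27), Hbb-b1 (0.29), Hbb-bs (0.34), Fam220a (0.37), Trim10 (0.38), Ube2l6 (0.46), Hba-a2 (0.48) and Slc25a39 (0.55). Of these, 6 were on a list of red cell markers: Slc4a1, the anion exchanger of the red cell membrane, Bpgm, which makes the bisphosphoglycerate that tunes haemoglobin, Trim10, and 3 globin genes. Cdr2 was at 25.2, 1.51 and 2.49 CPM in replicates 1, 2 and 3, Slc4a1 at 19.4, 1.39 and 2.87 CPM, and Bpgm at 158, 11.8 and 24.2 CPM. All of them were highest in replicate 1 and lowest in replicate 2.

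**Figure D3:**
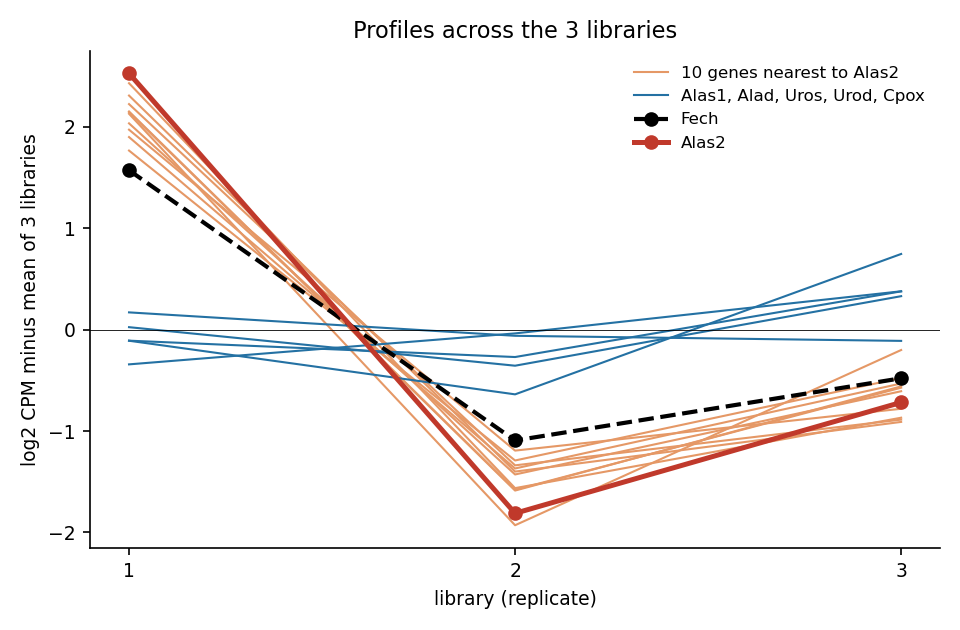
Log2 CPM (prior count 2) of each gene minus its mean over the 3 libraries; lines join the values of 1 gene and the libraries have no order. Alas2, Fech and the 10 nearest genes are high in replicate 1 and lowest in replicate 2, and the other 5 enzymes do not share that profile.

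Markers of other blood cells were set beside the enzymes. In bulk RNA, fewer cells of a type and less RNA per cell cannot be told apart. The red cell list summed to 54371 CPM in replicate 1, 10815 CPM in replicate 2 and 12671 CPM in replicate 3, the same order as Alas2 and Fech. Most of the sum in replicate 1 was globin: Hba-a1 (20678 CPM), Hbb-b1 (14451), Hba-a2 (7855) and Hbb-bs (5130). A large part in replicates 2 and 3 was Mkrn1 (3029 and 3295 CPM) and Bnip3l (1346 and 1392 CPM), which differed little between libraries. The sum therefore does not speak for each gene of the list. The tables held 22 genes of this list, of which 20 averaged at least 1 CPM. In 8 of these 20, replicate 1 was at least 2-fold above both others. Ahsp, Rhag, Rhd, Kel, Car1, Tspo2, Hbb-b2 and Hbb-bt were not in the count tables analysed here. Reads of the globin genes, which are close copies, could have been divided between them. Car2 also had a ratio over 2, and the remaining genes differed less, among them Epb41 (ratio 1.09), Mkrn1 (1.09) and Bnip3l (1.04).

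Alas2 differed between libraries by a larger ratio than the globin genes, Slc4a1 and Bpgm, and by about the ratio of Trim10. For each 1000 reads of Hba-a1, the alpha globin gene with the highest level, there were 27.4 reads of Alas2 in replicate 1, 10.1 in replicate 2 and 17.4 in replicate 3. Against Hbb-b1, a beta globin, the figures were 39.2, 25.2 and 38.4. Trim10 had a ratio of 19.7 between libraries, Slc4a1 14.0, Bpgm 13.4, Hbb-b1 13.1 and Hba-a1 7.47. Fech, at 6.39, had a smaller ratio than these. The ratio of Trim10 rests on 10 counts in replicate 2 and that of Slc4a1 on 35. No intervals were computed for the markers, so the place of Trim10 and Slc4a1 beside Alas2 is not firm. For each 1000 reads of Hba-a1 there were 2.91, 3.40 and 4.22 reads of Fech in replicates 1, 2 and 3, so that here replicate 1 was the lowest. The part of red cell RNA in the levels of Alas2 and Fech was not tested.

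Platelet markers did not vary in this way. The 16 genes of that list summed to 44320, 46288 and 47939 CPM in replicates 1, 2 and 3, and no ratio between libraries exceeded 1.34 (Gp5). The next were Vwf (1.27) and Gp1ba (1.23), and those of the highest genes, the chemokines Pf4 and Ppbp and the integrin Itga2b, were 1.06, 1.11 and 1.17. Leukocyte markers summed to 1466, 1691 and 1643 CPM, most of it Lyz2. Cd74, the invariant chain, was at 113, 101 and 167 CPM, and the T cell gene Cd3e was not in the count tables analysed here. On this list Cd79b (ratio 2.75), S100a8 (2.33) and S100a9 (2.14) had ratios over 2, all highest in replicate 3, and 10 of the 14 leukocyte genes averaging at least 1 CPM (71.4%) were highest there, a share near the 69.1% of all genes. With TMM scaling or DESeq2 size factors it was 8 of the 14, against 42.1% and 37.6% of all genes. The B cell receptor gene Cd79b was at 6.19, 9.17 and 17.04 CPM in replicates 1, 2 and 3 and Cd79a at 12.01, 12.8 and 21.9 CPM, beside 2.04, 1.39 and 3.75 CPM for Alad. The part of leukocyte RNA in Alad was not tested.

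**Figure D4:**
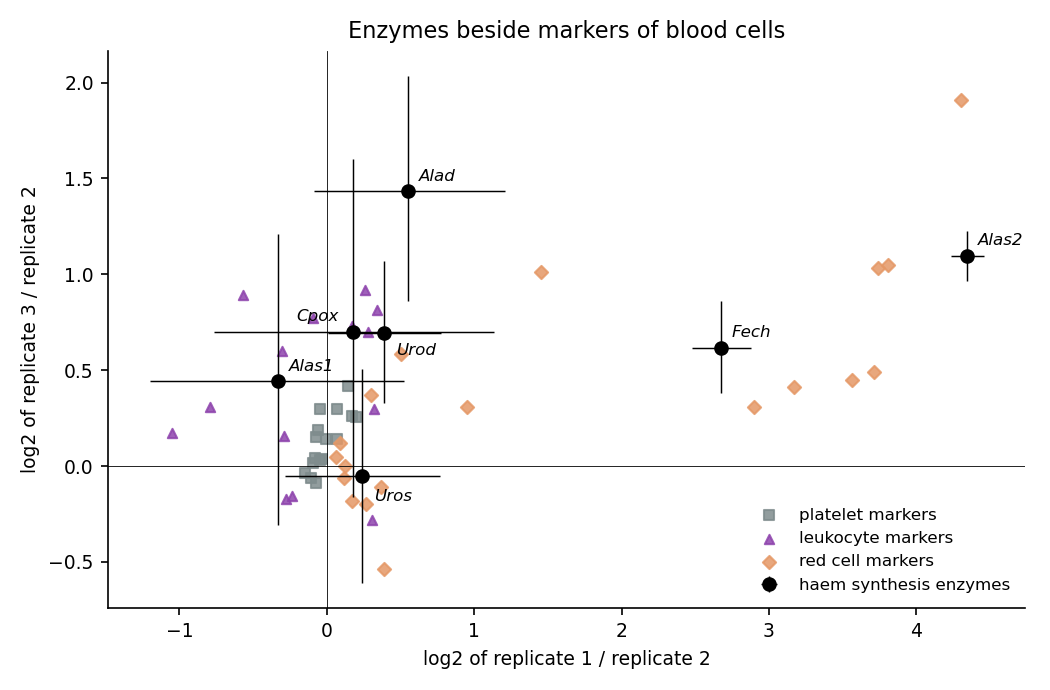
Log2 ratio of replicate 1 to replicate 2 against log2 ratio of replicate 3 to replicate 2 for the enzymes (black, bars are exact 95% intervals for counting error) and for markers of platelets, leukocytes and red cells averaging at least 1 CPM. Alas2 and Fech lie to the right among red cell markers, and the other enzymes lie near platelet and leukocyte markers, with Alad the highest of them at 1.43 for replicate 3 over 2.

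Of the proteins that carry substrates of haem synthesis across the mitochondrial membrane or act with its enzymes, 13 of 14 were in the tables and 10 averaged at least 1 CPM. In 2 of the 10, replicate 1 was at least 2-fold above both other libraries. Slc25a37, mitoferrin 1, which brings iron into the mitochondria of red cell precursors, was at 15.8, 2.58 and 4.29 CPM in replicates 1, 2 and 3. It tracked Fech closely, with 3808, 3646 and 3366 reads of Fech for each 1000 of its own. Slc25a39, a mitochondrial glutathione carrier, was at 66.7, 7.94 and 14.0 CPM. Fam210b followed with a smaller difference, at 5.38, 2.62 and 3.79 CPM.

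The other carriers and partners did not share the pattern. Slc25a38, the glycine carrier that serves the first step, was at 11.4, 9.96 and 11.8 CPM, a ratio of 1.18. Tmem14c, which is needed for moving protoporphyrinogen inward, was at 25.2, 25.2 and 24.1 CPM, and Pgrmc1, which binds ferrochelatase, at 40.8, 41.5 and 41.9 CPM. Their ratios on plain totals were 1.05 and 1.03. Clpx, which unfolds the first enzyme to load its cofactor, was at 1.11, 1.59 and 1.95 CPM. The median ratio of the 10 genes was 1.67, beside 1.32 for all genes.

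Iron-sulphur cluster assembly, on which ferrochelatase depends, had 13 of 18 genes in the tables and 9 averaging at least 1 CPM. Isca1 was the highest, at 114, 101 and 92.5 CPM, followed by Iscu (43.9, 43.9 and 36.9 CPM) and Hscb (29.2, 32.0 and 29.0 CPM). Only Bola3 had a ratio over 2 among the 9, at 3.89, 1.35 and 1.57 CPM, with replicate 1 at least 2-fold above both others. Hspa9 (ratio 1.69) and Ciao3 (1.47) followed, and the median of the 9 was 1.34.

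Genes of haem export, uptake, breakdown and sensing numbered 8 of 12 in the tables, 7 averaging at least 1 CPM. Blvrb, the biliverdin reductase abundant in red cells, was at 72.8, 79.8 and 75.9 CPM and did not follow Alas2. Eif2ak1, the kinase that halts translation when haem is short, was at 51.6, 55.4 and 59.6 CPM, and Slc48a1, a haem carrier of lysosomes, at 44.0, 28.9 and 33.9 CPM. Hmox1, which opens the haem ring, was at 6.45, 6.59 and 8.62 CPM. Hmox2 (1.67, 2.34 and 3.49 CPM) had a ratio of 2.09, with replicate 1 the lowest, and Blvra one of 1.94. The median of the 7 was 1.34. In none of the 7 was replicate 1 at least 2-fold above both others.

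None of the measured regulators of the erythroid programme had a ratio of 2 or more. Of 11 on that list 10 were in the tables, all averaging at least 1 CPM, and Klf1 was not in the count tables analysed here. Gata1, the factor that activates Alas2, was at 149, 200 and 145 CPM in replicates 1, 2 and 3, so that replicate 1 was not its highest library. Nfe2 and Tal1, which red cell precursors and megakaryocytes share, had ratios of 1.12 and 1.09. Epor, the erythropoietin receptor, was at 11.5, 10.8 and 12.1 CPM, and the iron regulatory protein genes Aco1 and Ireb2 at 6.97, 8.61 and 9.80 CPM and at 3.30, 2.38 and 4.40 CPM. The largest ratio on the list was the 1.85 of Ireb2, followed by Lmo2 (1.49) and Ldb1 (1.47), partners of Gata1 and Tal1 in one complex. The median of the 10 was 1.39.

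Haem-binding proteins of platelets, which use the product of the pathway, differed little between libraries. Cat, catalase, was at 1245, 1237 and 1214 CPM, Cyb5a, cytochrome b5, at 852, 871 and 832 CPM, and Tbxas1, thromboxane synthase, at 267, 305 and 280 CPM. Ptgs1, the platelet cyclooxygenase, was at 171, 168 and 205 CPM. No ratio on this list reached 2 among the 9 genes averaging at least 1 CPM, the largest being 1.46 (Cyc1) and 1.29 (Cybb) and the smallest 1.03 (Cat and Cyba), with a median of 1.14.

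**Figure D5:**
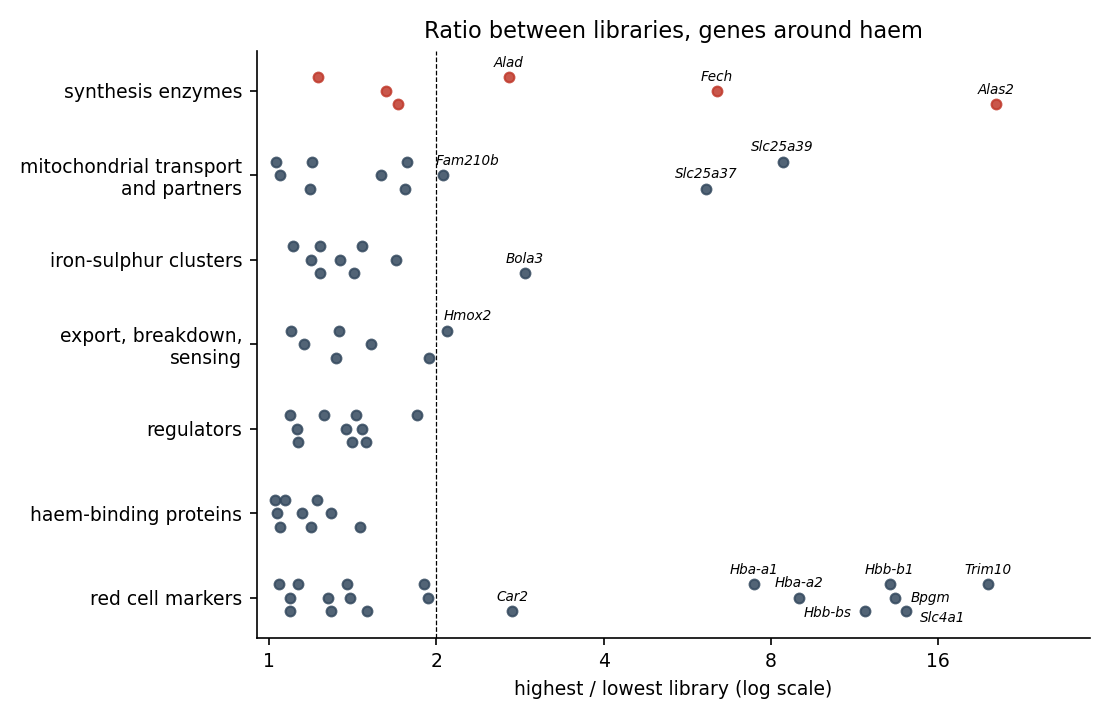
Ratio of the highest to the lowest library (log scale) for genes averaging at least 1 CPM, by list; each point is a gene, names mark ratios of 2 or more, the dashed line is at 2 and vertical offsets only separate points. Alas2, Fech, Slc25a37 and Slc25a39 lie at 6.12 or more, as do red cell markers from Hba-a1 (7.47) upward, and no regulator or haem-binding protein passes 2.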

How the data were processed

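RNA of purified platelets was sequenced in 3 libraries, which form 1 group. Norgen columns for the RNA and Illumina TruSeq RNA v2 for the libraries are named per the labels. In the deposited tables each Entrez gene has a raw read count and a gene length. CASAVA 1.8.2, Subread, featureCounts, edgeR 3.11.5 and build mm10 are named, per the submitters' processing notes, without order or settings; the annotation, the strand setting, the handling of multi-mapping reads and the rule for listing a gene were not stated in the labels or headers. Reads of genes on opposite strands may therefore be mixed: in GENCODE M21 exons of Alas2 share 372 bases with Apex2 and Mir3620, Alas1 465 bases with 4930500F10Rik and Cpox 204 bases with Gpr15, none of these partners being in the count tables analysed here.

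Symbols were matched by Entrez number to RefSeq for GRCm38.p6 (9636 of 9822 genes), the assembly of mm10. CPM used plain totals; 3 counts, the limit a count of 0 allows, equal 0.111 to 0.119 CPM. For profiles, 2 was the prior count in log2 CPM. Ratios of 2 libraries carry exact binomial 95% intervals and single CPM exact Poisson ones; both cover counting error only, and reads are not independent molecules. The members and lists were chosen with earlier results of these data known. Named genes were the members, the 3 highest and the 3 most variable of each list, the 2 steadiest of each haem list and the 10 genes nearest to Alas2; a few others are named where a comparison needs them, and some results are not reported here. On simulated data for 8289 genes, the rule for replicate 1 at 2-fold above both others found 50 of 50 genes raised 4-fold. It found 17 of 50 raised 2-fold and 1 of 8089 unchanged genes. The simulation gave all genes the same dispersion and, apart from the raised genes, equal levels in every library. It held no shift such as that of replicate 3, so it gives no error rate for these data. Alternatives were TMM scaling (edgeR 4.0.16), DESeq2 1.42.0 size factors, totals without the 10 highest genes or the red cell list, other minimums, prior counts and thresholds, no length scaling, and each library left out. Python 3.11.15, NumPy 2.4.6, pandas 2.3.3, SciPy 1.17.1, matplotlib 3.10.9 and R 4.3.3 were used.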

Additional observations from a re-analysis of the deposited data

How the results depend on the processing

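No paired analysis was possible because there is 1 group. The members with a ratio of 2 or more stayed 3 under TMM scaling, DESeq2 size factors and both reduced totals, and were 6 at a threshold of 1.5, which 33.6% of genes pass. In an alternative chosen after seeing the data, the count at 1.5 was 3 with TMM scaling and with DESeq2 size factors and 6 with both reduced totals. With each library left out, the members with a ratio of 2 or more were 2 in every case (Alas2 with Alad without replicate 1, Alas2 with Fech without replicate 2 or 3). Alas2 and Fech stayed the 2 members raised at least 2-fold in replicate 1 under all 4 scalings. Over those scalings the ratio ran from 19.1 to 21.3 for Alas2, 5.999 to 6.69 for Fech and 2.25 to 2.71 for Alad. Without replicate 1 the ratio was 2.14 for Alas2 and 1.53 for Fech, and without replicate 3 that of Alad was 1.47. The share of all genes with a ratio of 2 or more was 9.33% and moved with the setting: it was 4.38% with TMM scaling, 3.83% with DESeq2 size factors, 5.02% without replicate 1, 2.94% at a mean of 5 CPM or more, 13.1% with no minimum and 0.875% without replicate 3. Fech and Urod changed places in the order per length without replicate 1, where their counting intervals overlapped in each library. Alad and Uros changed places without replicate 3. The distance of each member from the Alas2 profile moved by less than the SD of its own log2 values under every scaling and prior count. At 19 to 38 counts per library, the differences seen in Cpox and Alas1 were within counting error.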

Other observations

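The 27 genes that were at least 2-fold higher in replicate 1 than in both other libraries included some on none of the lists, and those given here were picked out after their values were seen. Ube2l6, the conjugating enzyme for ISG15, was at 128, 13.2 and 23.6 CPM in replicates 1, 2 and 3. Hagh, a glyoxalase, was at 7.67, 1.63 and 2.07 CPM. Ybx3, an RNA-binding protein, had the order 1, 3, 2 with smaller steps, at 22.7, 8.77 and 9.88 CPM. Acsl1, a fatty acid activating enzyme, was at 3.78, 1.27 and 1.46 CPM.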
